A study of Mus musculus with 6 samples.

Results

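Hippocampal gene expression was compared between 18 month-old Tg2576 mice that had received captopril and untreated mice of the same line and age. The comparison rests on 4 of the 6 chips of the study, 2 of captopril-treated mice (Tg-18mo-ACEI) and 2 of untreated mice (Tg-18mo), chosen by their sample titles. All mice of both groups were male, on a C57BL/6 background (C57BL/6J in the study's methods), and carried the Tg2576 transgene, a human amyloid precursor protein of 695 residues with the Swedish double mutation under the prion protein promoter. The treated mice drank captopril at 20 mg/kg/day for 6 months, from an age of 12 to 18 months, and the untreated mice drank plain water. Each chip was hybridised with hippocampal RNA pooled from 4 mice. The sources used here do not say whether the 2 chips of a group carry different pools, so a p-value here reflects only how far chips of 1 group differ, which may be technical. The 2 remaining chips, of untreated 12 month-old mice (Tg-12mo), entered the model to estimate the spread, and their levels are given as a reference.

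Captopril blocks the angiotensin-converting enzyme (ACE), a peptidase that makes angiotensin II from angiotensin I and that also degrades bradykinin. In the brain the gene is expressed by the choroid plexus, the epithelium of the ventricles that secretes cerebrospinal fluid, besides vessels and some neurons. The hippocampus consists of granule neurons of the dentate gyrus, pyramidal neurons of the CA fields, interneurons and glia, and it borders on the choroid plexus, the ependyma, a ciliated cell layer lining the ventricles, and the meninges, the membranes around the brain. How much of these neighbours a dissection carries along differs between samples.

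The array (Affymetrix MG430 2.0) reads each transcript with 1 or more probe sets, and the deposited value is a linear signal per probe set and chip. Of 45037 probe sets other than controls, 22829 had a mean signal of at least 100 in either group and were tested. Of these, 909 reached 100 only in untreated mice and 797 only in treated mice, so these had to differ to some degree to be tested. The signal of a gene on a chip is the geometric mean of all its tested probe sets that carry 1 gene symbol, which gave 12185 genes, 6800 with 1 such probe set and 5385 with 2 to 11. Differences are log2 values, captopril-treated minus untreated, so that 1 is a 2-fold rise, and a gene or probe set was called when limma gave an adjusted p under 0.05 (Benjamini-Hochberg over all genes or all probe sets). All p-values below are of this kind.

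Between chips of the same group, log2 signals correlated at 0.987 to 0.993 across the tested probe sets, which are not independent replicates, and between chips of different groups at 0.960 to 0.967. The 18S rRNA control probe set at the 3′ end read 10219 and 11144 on the untreated chips, 2214 and 1999.95 on the treated chips and 2125 and 2121 on the 12 month-old chips. For β-actin, the signal near the 3′ end over that near the 5′ end, a measure of RNA integrity and of labelling, was 1.98 and 1.88 on the untreated, 1.45 and 1.38 on the treated and 1.83 and 1.77 on the 12 month-old chips. Both controls differed between the chips compared, and their part in the differences below was not tested. The 12 month-old chips read higher at the top of the signal range. Their highest signals were 39494 and 40190, against 24057 and 25102 on the untreated and 23607 and 21934 on the treated chips. The 18 hybridisation controls read 4230 and 4243 there, against 1811 and 1873 on the untreated and 1840 and 1675 on the treated chips. The part of this in the 12 month-old levels below was not tested. Of markers of dentate granule neurons and of CA pyramidal neurons, 16 of 16 and 16 of 16 annotated genes passed the signal minimum. So did 18 of 18 annotated markers of neighbouring brain regions, so that passing the minimum does not tell the hippocampus from its neighbours.

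With captopril, 1964 of 12185 genes rose, which is 16.1% of the genes tested, and 2635 genes fell, which is 21.6%. Most of these differences were small. The median was 0.40 for the genes that rose and -0.37 for those that fell, and 120 genes (0.985%) rose and 159 genes (1.3%) fell by at least 2-fold. The chips of the treated and untreated group did not overlap for 74% of all genes tested, so that a lack of overlap by itself sets no gene apart. Over all genes the median difference was -0.07, and this median and the shares above are the background for the counts of each list below. Leaving out 1 chip moved these numbers. With Tg-18mo replicate 2 omitted 1241 genes rose and 1461 fell, with Tg-18mo-ACEI replicate 2 omitted 1161 rose and 1544 fell, and with Tg-18mo replicate 1 omitted 1710 fell. By probe set, 3705 rose (16.2%) and 4146 fell (18.2%), 34.4% in all. At the thresholds of the study's methods, a p under 0.01 and a change of 2-fold or more, here with the p of limma, 706 probe sets rose (3.09%) and 247 fell (1.08%).

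**Figure D1:**
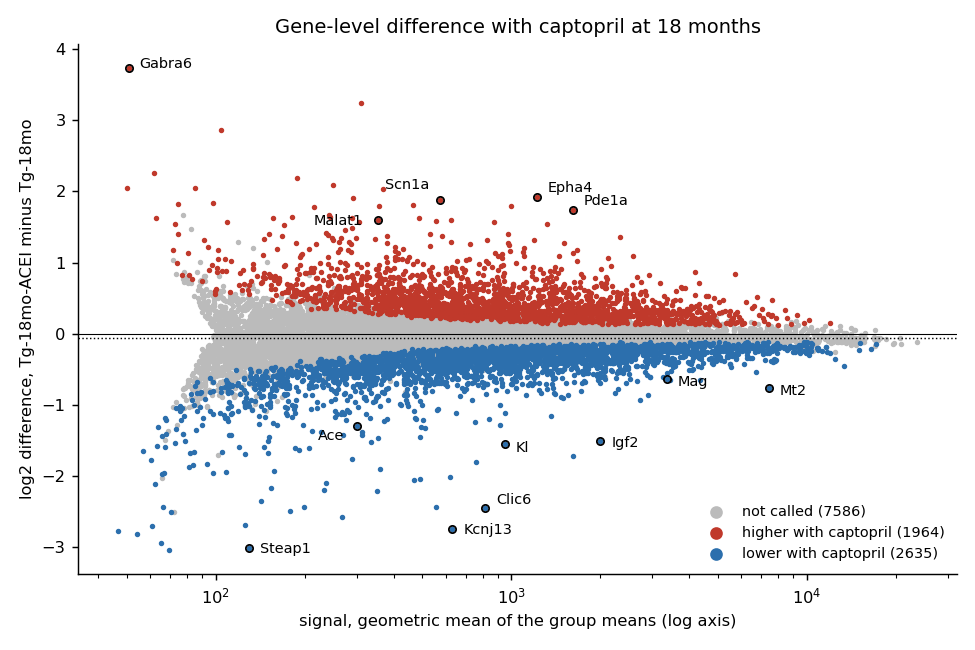
Each point is 1 of 12185 genes, with the geometric mean of its mean signals in Tg-18mo and Tg-18mo-ACEI on a log axis and its log2 difference with captopril. Red genes (1964) were called higher and blue genes (2635) lower by limma, grey genes were not called, and the dotted line is the median of all genes at -0.07.

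The direction of the calls went with the number of probe sets that represent a gene. Of the 6800 genes with 1 kept probe set, 9.38% rose and 26.1% fell. Among 3349 genes with 2 kept probe sets these shares were 20.2% and 18.4%, among 1277 genes with 3 they were 28.8% and 13.3%, and among 269 genes with 5 or more they were 39.8% and 12.3%. The share of genes that rose was larger in each class with more probe sets, and the share that fell was smallest, at 8.98%, among 490 genes with 4. This is a description across genes, which are not independent replicates. The number of probe sets is a property of the array design and of the signal minimum, and its part in the calls was not tested.

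**Figure D2:**
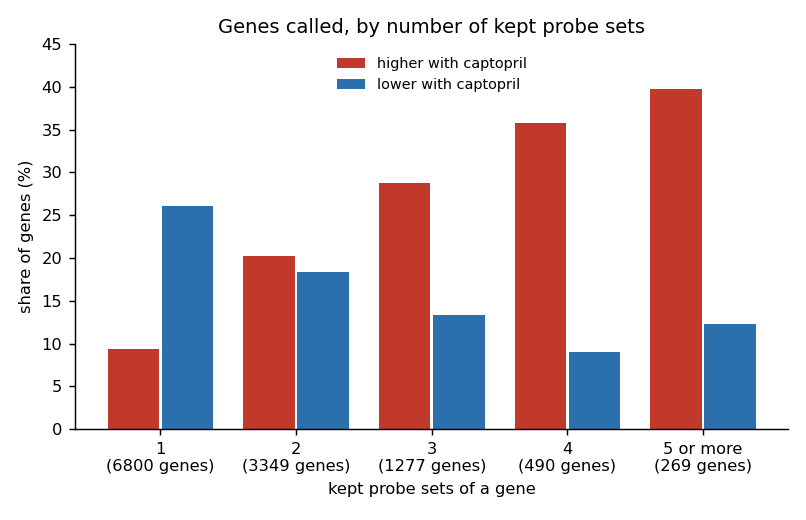
Share of genes called higher (red) and lower (blue) with captopril, in percent on an axis that starts at 0, for genes grouped by their number of kept probe sets. The red bars grow from 9.38% to 39.8% while the blue bars shrink from 26.1% to 12.3%, with the lowest at 8.98% for 4 probe sets.

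Ace, the target of the drug, had signals of 508 and 436 in untreated mice and of 180 and 204 in treated mice. Both treated chips lay well below both untreated chips, and below the 12 month-old mice at 269 and 318. Expressed as means, Ace went from 472 ± 51.2 to 192 ± 17.3 (SD, n = 2 each), a difference of -1.30 (standard error 0.13, limma adjusted p = 0.00032), and it fell on both of its probe sets, by 1.45 and 1.14 on the log2 scale. Of 18 genes listed for the renin-angiotensin system, 9 were tested, of which 2 rose and 1, Ace, fell, with a median of -0.11. Over all genes 16.1% rose and 21.6% fell. Mas1, the receptor of the peptide angiotensin-(1-7), had signals of 229 and 179 in untreated mice and 301 and 304 in treated mice and rose by 0.58 (limma adjusted p = 0.016). Mme, neprilysin, a peptidase that cleaves angiotensin peptides and amyloid-β, went from 123 and 101 to 185 and 184 and rose by 0.73 (limma adjusted p = 0.019). For both genes all treated chips were above all untreated chips, but both calls were lost if Tg-18mo replicate 2 was left out (0.40 and 0.59, limma adjusted p = 0.11 and 0.12), if Tg-18mo-ACEI replicate 1 was (0.073 and 0.086) or if Tg-18mo-ACEI replicate 2 was (0.086 and 0.091), and also with no filter on low signals. Angiotensinogen, Agt, the precursor of all angiotensins, overlapped between the groups, with 730 and 454 in untreated and 670 and 558 in treated mice (difference 0.09, limma adjusted p = 0.74). Its direction hung on single chips, with 0.43 (limma adjusted p = 0.035) once Tg-18mo replicate 1 was omitted and -0.26 (limma adjusted p = 0.15) once Tg-18mo replicate 2 was. Enpep, an aminopeptidase that makes angiotensin III, Atp6ap2, the prorenin receptor, Agtrap, a protein that binds the angiotensin type 1 receptor, and the peptidases Rnpep and Prcp did not pass, with differences of 0.07, -0.11, -0.39, -0.21 and -0.30. The angiotensin receptors Agtr1a, Agtr1b and Agtr2 did not reach a mean signal of 100 in either group and were not tested.

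Genes of the choroid plexus showed the deepest falls among the 38 lists, with 23 of 26 tested members lower, 0 higher and a median of -1.96, against -0.07 over all genes. Kcnj13, a potassium channel of this epithelium, had signals of 1567 and 1701 in untreated, 262 and 227 in treated and 1341 and 1731 in 12 month-old mice. The treated chips were far below those of both other groups, from 1634 ± 95.3 to 244 ± 24.6 (SD, n = 2 each) at 18 months, a difference of -2.74 (standard error 0.12, limma adjusted p = 9.8e-06). The chloride channel protein Clic6 fell from 1875 and 1927 to 338 and 360, a difference of -2.45 (standard error 0.06, limma adjusted p = 1.3e-06). Kl, Klotho, a membrane protein that acts as co-receptor of fibroblast growth factors, fell from 1675 and 1578 to 551 and 555 (difference -1.56, limma adjusted p = 6.7e-06), on the 1 of its 2 probe sets that reached a signal of 100. With no filter on low signals both probe sets of Kl entered, and the call was lost, though the difference was hardly smaller (-1.48, limma adjusted p = 0.075). Steap1, a metalloreductase, went from 368 and 350 to 32.2 and 61.6, and the tight junction protein Cldn3 from 115 and 129 to 14.7 and 21.3, so that the treated chips were at very low signals, where the size of a log2 difference is poorly set. Both genes, and Slc4a5, reached the signal minimum only through the untreated mice and so had to differ to be tested. Their differences were -3.01 and -2.78, and with 32 added to each signal -2.22 and -1.59. The transporter Slc4a5 fell by 2.69 (limma adjusted p = 0.0018).

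The fall of this list held across probe sets. Of the 41 probe sets of its genes 37 fell and 0 rose, and of 10 genes with 2 or more probe sets 8 fell on every one, among them Ecrg4, a secreted peptide precursor, by 1.25 to 2.13, and Clic6 by 2.32 and 2.57. Cldn1, Car12 and Ttr were the 3 members that did not pass, with differences of -0.52, -0.27 and -0.17, of which Cldn1 and Car12, a claudin and a carbonic anhydrase, were named after their values were seen. Ttr, transthyretin, a thyroid hormone carrier, had signals of 16724 and 19345 in untreated and 16420 and 15474 in treated mice, and of its 4 probe sets 2 fell, by 0.50 and 0.22, while the others, the brightest included (0.05), did not pass. Summed over all 26 members, the signal was 38272 and 41163 on the untreated, 22693 and 21987 on the treated and 52334 and 52826 on the 12 month-old chips, a ratio of untreated to treated of 1.78 at 18 months. Summed over the 25 members other than Ttr, the signal on the treated chips was 6274 and 6513 and on the untreated chips 21548 and 21818, a ratio of 3.39, and on the 12 month-old chips 19617 and 19480. In both sums the treated chips were below all others, and the 12 month-old chips were above the untreated 18 month-old chips in the first sum and below them in the second. The brightest signals were higher on the 12 month-old chips in general, and the part of this in the first sum was not tested. No member was at 0, which the signal minimum by itself ensured. In pooled tissue, fewer cells of a type and less RNA per cell cannot be told apart. Ace and Kl are members of this list, and how far their falls go with the amount of choroid plexus on each chip was not tested. The number of members that fell was 22 or 23 when any 1 chip was left out.

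Ependymal genes fell in 13 of 17 cases with 0 rises (median -0.79). Dynlrb2, a dynein light chain of cilia, had signals of 756 and 681 in untreated and 335 and 292 in treated mice, and Mia, a secreted protein, 351 and 388 against 188 and 160. Their differences were -1.20 and -1.09 (limma adjusted p = 0.0001 and 0.00062). Foxj1, the transcription factor that directs the making of motile cilia, went from 298 and 208 to 96.3 and 108 and fell by 1.29 (limma adjusted p = 0.01), a call that leaving out Tg-18mo replicate 1 (0.086) or Tg-18mo-ACEI replicate 1 (0.058) ended. In the list of meninges and fibroblasts 15 of 19 genes fell and 0 rose (median -0.65). Igf2, a growth factor, went from 3425 and 3334 to 1208 and 1159 and fell by 1.51 (standard error 0.05, limma adjusted p = 1.8e-06), Pcolce, which helps to mature procollagen, by 1.31 and Mgp, a matrix protein, by 1.19. The enzyme that makes prostaglandin D2, Ptgds, fell by only 0.36, from 13540 and 14622 to 11220 and 10660. Col1a1, a collagen chain, had the lowest value of the list, -2.51, and was not called, since its treated chips read 69.3 and 8.01 (limma adjusted p = 0.1). Summed signals of the meningeal list were 25572 and 26619 in untreated and 18344 and 17558 in treated mice, and those of the ependymal list 5928 and 5569 against 3601 and 3425.

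**Figure D3:**
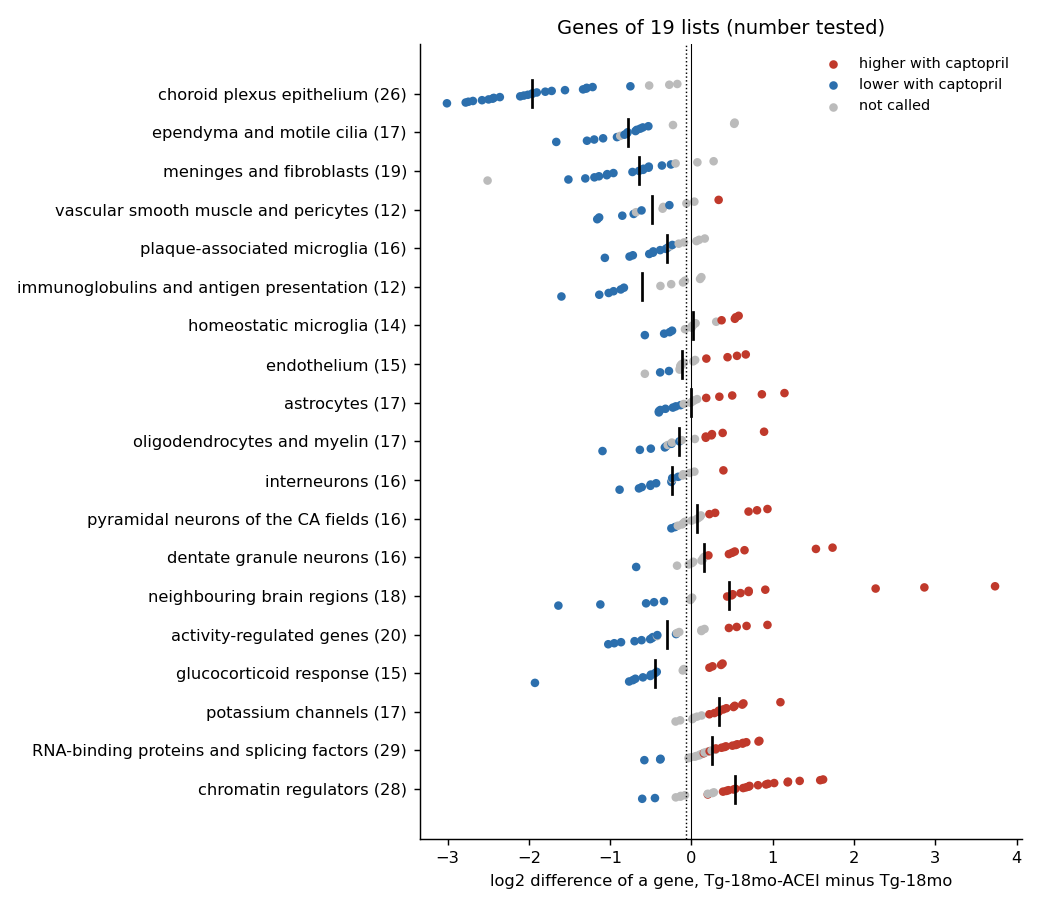
Log2 differences with captopril of all tested genes in 19 of the 38 gene lists, with the number tested behind each name. Red points were called higher, blue lower and grey not called, black bars are list medians and the dotted line is the median of all genes. The choroid plexus list sits farthest to the left (median -1.96) and the chromatin regulators farthest to the right (median 0.53).

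Vessels were followed by 2 lists. Of 12 genes of smooth muscle and pericytes, 6 fell and 1, Rgs5, rose (median -0.48), the rise being lost without Tg-18mo replicate 2 or Tg-18mo-ACEI replicate 2. Acta2, smooth muscle actin, had signals of 1961 and 2098 in untreated and 908 and 908 in treated mice and fell by 1.16 on 1 of its 3 probe sets, the others being under 100. With no filter on low signals the call was lost, although the difference was larger (-1.35, limma adjusted p = 0.11). Tagln, transgelin, an actin-binding protein of smooth muscle, went from 397 and 390 to 181 and 178, a difference of -1.14 (standard error 0.20, limma adjusted p = 0.0038), and 12 month-old mice were at 225 and 140. For both genes the treated chips were less than the untreated ones by more than the distance between replicates. Of 15 endothelial genes, 4 rose and 2 fell (median -0.12), against 16.1% higher and 21.6% lower over all genes. Cldn5, the main claudin of the blood-brain barrier, went from 754 and 783 to 1142 and 1123 and rose by 0.56 (standard error 0.08, limma adjusted p = 0.0012). Kdr, another member, went the other way, from 224 and 175 to 133 and 132. Its difference was -0.57 and was not called (limma adjusted p = 0.054). The 4 rises became 2 without Tg-18mo replicate 2 or either treated chip, and the 2 falls became 1 without any 1 of the 4 chips of 18 months and 5 without either 12 month-old chip. Summed endothelial signals were 11952 and 11876 in untreated and 11744 and 11635 in treated mice, while those of the smooth muscle list were 7117 and 7216 against 4940 and 5148.

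Microglia, the macrophages of the brain, respond to amyloid plaques by expressing a set of phagocytic and lysosomal genes. Of 16 such plaque-associated genes 10 fell and 0 rose (median -0.30), and 6 fell without Tg-18mo-ACEI replicate 2. Lgals3, galectin-3, had signals of 286 and 251 in untreated and 154 and 162 in treated mice, and Lyz2, lysozyme, had 831 and 847 against 532 and 487. In both genes the groups were apart, with differences of -0.76 and -0.72 (limma adjusted p = 0.0018 and 0.00031). At 12 months Lyz2 was at 543 and 519, near the treated mice, and Lgals3 was at 402 and 395, above both groups of 18 months. Trem2, a lipid receptor of microglia, went from 413 and 445 to 297 and 302 and fell by 0.52 (limma adjusted p = 0.0072), on 1 of its 2 probe sets, with 178 and 199 at 12 months. The call was lost without Tg-18mo replicate 2 (-0.47, limma adjusted p = 0.062), and with no filter on low signals, when both probe sets entered, the difference was -0.11 (limma adjusted p = 0.86). Apoe, an apolipoprotein of glia, did not pass (-0.16, limma adjusted p = 0.052).

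Genes of homeostatic microglia, those of the resting state, went both ways, with 4 of 14 higher, 4 lower and a median of 0.02. These counts were 2 and 1 with Tg-18mo replicate 2 omitted, and 2 and 2 with Tg-18mo-ACEI replicate 2 omitted. P2ry12, a purinergic receptor, went from 741 and 784 to 1117 and 1089, and Cx3cr1, the fractalkine receptor, from 313 and 354 to 480 and 490. They rose by 0.53 and 0.54 (limma adjusted p = 0.0005 and 0.0028). Mertk, a receptor for the uptake of dead cells, fell by 0.57, from 1223 and 1336 to 857 and 861. The summed signal of this list was 11741 and 12182 in untreated and 11611 and 11543 in treated mice, and that of the plaque-associated list 32567 and 34140 against 28834 and 27566. Among 12 genes of immunoglobulins and antigen presentation, 6 fell and 0 rose (median -0.61). The 3 genes of class II molecules in the list that present antigens, H2-Aa, H2-Ab1 and H2-Eb1, fell by 1.60, 1.02 and 0.87, and Cd74, their chaperone, went from 372 and 388 to 173 and 174 and fell by 1.13 (limma adjusted p = 0.00074). Ighm, the heavy chain of immunoglobulin M, fell on each of its 5 kept probe sets, by 0.49 to 1.67, of 11 on the array. The calls of H2-Aa and Ighm were lost with no filter on low signals (limma adjusted p = 0.12 and 0.08), and that of H2-Eb1 once Tg-18mo replicate 1 (0.058), Tg-18mo replicate 2 (0.063) or Tg-18mo-ACEI replicate 1 (0.076) was omitted. Of the 2 kept probe sets of H2-Aa, 1 reached the signal minimum only through the untreated mice. The class I genes H2-D1, H2-K1 and B2m were not called, with -0.25, -0.10 and 0.11. Of 6 complement genes 3 fell and of 16 interferon-stimulated genes 3 fell and 1 rose, against 21.6% lower and 16.1% higher over all genes, so that the interferon counts lie under those shares. The counts became 1 for complement without Tg-18mo replicate 2 or Tg-18mo-ACEI replicate 2, and 0 for the interferon rise without any 1 of the 4 chips. H2-Eb1, H2-D1, H2-K1 and Rgs5 were named after their values were seen.

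Astrocyte genes went both ways, with 5 of 17 higher and 7 lower (median -0.01). Gfap, the filament protein that marks reactive astrocytes, went from 4729 and 4855 to 4030 and 4148 and fell by 0.23 (standard error 0.04, limma adjusted p = 0.004), with 2330 and 2378 at 12 months. The bicarbonate cotransporter Slc4a4 rose by 1.14, from 764 and 713 to 1676 and 1588, and the glutamate transporter Slc1a2 by 0.87, from 831 and 904 to 1550 and 1611. Both rises depend on which probe sets are read, since on the brightest probe set the difference was -0.10 for Slc4a4 and 0.13 for Slc1a2, and neither passed there. Gfap was named after its value was seen, and its call was lost with the median over its probe sets (-0.15, limma adjusted p = 0.095). The number of falls in this list was 4 without Tg-18mo replicate 2. Among 17 genes of oligodendrocytes and myelin, 6 rose and 7 fell (median -0.15). Mag, a myelin adhesion protein, went from 4104 and 4279 to 2770 and 2629 and fell by 0.63 (standard error 0.05, limma adjusted p = 8.7e-05). Among the members that rose, Enpp6 went from 72.0 and 67.4 to 119 and 141, a difference of 0.89 (limma adjusted p = 0.017). It reached the signal minimum only through the treated mice. Mbp rose by 0.18 (limma adjusted p = 0.012), with 1 of its 8 probe sets called higher and 1 lower. The rises became 3 with Tg-18mo replicate 1 omitted, and with Tg-18mo replicate 2 omitted there were 2 rises and 4 falls.

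**Figure D4:**
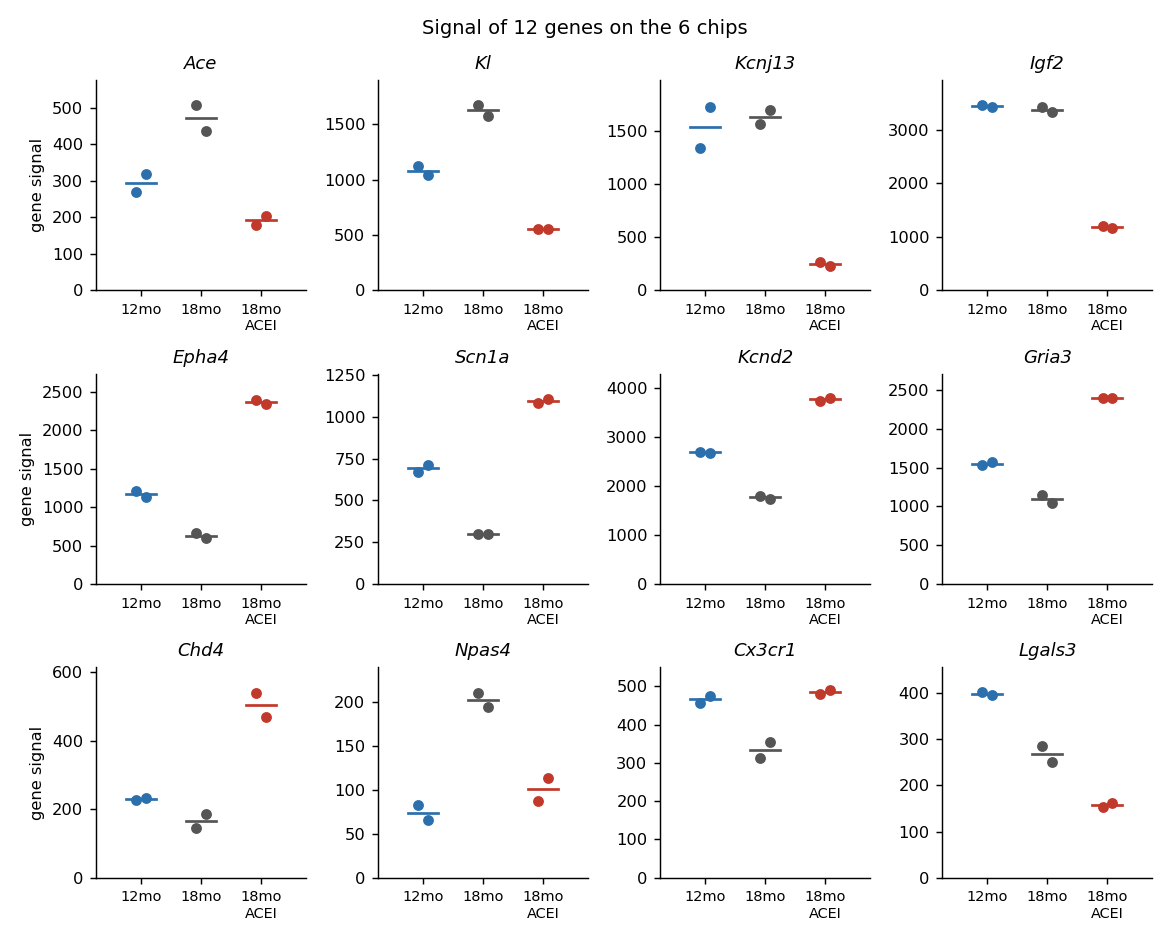
Signal of 12 genes on each of the 6 chips, on linear axes that start at 0, with points for chips and lines for the mean of the 2 chips of a group. Ace, Kl, Kcnj13 and Igf2 lie lowest in the captopril-treated mice (18mo ACEI), Epha4, Scn1a, Kcnd2, Gria3 and Chd4 lie highest there, and for Npas4 the untreated 18 month-old mice are highest.

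Neurons of the hippocampus were followed by 3 lists. Of 16 dentate granule genes, 7 rose and 1 fell (median 0.15). Pde1a, a calmodulin-dependent phosphodiesterase, had signals of 898 and 869 in untreated and 3028 and 2858 in treated mice, with 1599 and 1496 at 12 months. It rose by 1.74 (standard error 0.06, limma adjusted p = 2.8e-06) on 1 of its 2 probe sets, and the call was lost when the other, under 100, was included (1.70, limma adjusted p = 0.12 with no filter on low signals). Prox1, the transcription factor that defines granule cells, went from 113 and 88.5 to 280 and 299 and rose by 1.53 (limma adjusted p = 0.00056) on all 3 probe sets, by 0.63, 1.57 and 2.39. The rise of 2.39 was on its dimmest probe set. With a gene signal near 100 in untreated mice, that probe set may have reached the signal minimum only through the treated mice. With 32 added to each signal the difference of Prox1 was 1.25. Penk, the precursor of enkephalin, was the member that fell, by 0.68, from 2177 and 2308 to 1386 and 1412. Of 16 pyramidal neuron genes, 5 rose and 2 fell (median 0.07), with Nr4a2 and Nectin3, an adhesion protein, higher by 0.93 and 0.70, the latter not called with the median over its probe sets (0.21, limma adjusted p = 0.59). The falls became 1 without either untreated chip of 18 months. Summed signals of the pyramidal list were 48315 and 49468 in untreated and 50422 and 49369 in treated mice, and of the dentate list 15778 and 15526 against 19212 and 19319.

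Interneuron genes fell in 10 of 16 cases and 1, Gad2, rose (median -0.24). Neuropeptide Y, Npy, had signals of 4023 and 4007 in untreated and 2738 and 2523 in treated mice, with 2805 and 2887 at 12 months, and fell by 0.61 (standard error 0.05, limma adjusted p = 0.00013). The interneuron transcription factors Dlx1 and Dlx2 fell by 0.65 and 0.88. For all 3 genes the treated chips were below the untreated ones. Gad2, an enzyme that makes GABA and named after its value was seen, had 1 probe set that rose by 1.15 and 1 that fell by 0.37, and its rise was lost when Tg-18mo replicate 1 or either treated chip was left out.

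Markers of neighbouring brain regions, listed to follow the dissection, went in opposite directions. Of 18 genes, 10 rose and 5 fell (median 0.47, or 0.10 with the brightest probe set of each gene). Among cerebellar genes, signals were very low in untreated mice, and Gabra6, Pcp2 and Cbln3 reached the signal minimum only through the treated mice, so that they had to differ to be tested. Gabra6, a GABA-A receptor subunit of cerebellar granule cells, had 21.6 and 7.93 in untreated, 158 and 192 in treated and 1.67 and 3.31 in 12 month-old mice, and Pcp2, a Purkinje cell protein, had 39.0 and 38.3 against 275 and 287. Their differences were 3.73 and 2.86 (limma adjusted p = 0.026 and 0.0069), or 2.16 and 2.15 with 32 added to each signal, and Gabra6 lost its call without any 1 of the 4 chips of 18 months (limma adjusted p = 0.093 to 0.21) and Pcp2 without Tg-18mo-ACEI replicate 2 (limma adjusted p = 0.055). Cbln3, a cerebellar secreted protein, rose by 2.26, and all 3 calls were lost with no filter on low signals (limma adjusted p = 0.056 to 0.077). Genes of the striatum were also in the list. Drd2, a dopamine receptor, went from 299 and 376 to 127 and 91.5 and fell by 1.64 (standard error 0.22, limma adjusted p = 0.001), and Ppp1r1b, the phosphatase inhibitor of striatal projection neurons, by 1.12, from 1445 and 1352 to 742 and 557, the latter gene being named after its value was seen. The number of rises was 6 without Tg-18mo-ACEI replicate 2, and the falls were 3 without Tg-18mo replicate 1, Tg-18mo replicate 2 or Tg-18mo-ACEI replicate 1. The part of the dissection in the other differences was not tested.

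Voltage-gated sodium channels rose in 5 of 7 cases and fell in 1 (median 0.23). With the brightest probe set of each gene 3 rose and 1 fell, and the median was 0.05. Scn1a, the α-subunit of the channel Nav1.1, had signals of 299 and 297 in untreated and 1086 and 1105 in treated mice, with 669 and 713 at 12 months. The groups were far apart, at 298 ± 1.22 and 1096 ± 13.6 (SD, n = 2 each), a difference of 1.88 (standard error 0.07, limma adjusted p = 4.3e-06). Scn2a, the α-subunit of Nav1.2, rose by 0.53 on all of its 4 probe sets, from 1226 and 1079 to 1718 and 1605. The 5 rises became 3 without either of the treated chips, and the fall was lost without any 1 of the 4 chips of 18 months. Of 17 potassium channel genes, 11 rose and 0 fell (median 0.33, or 0.07 with the brightest probe set of each gene, where 7 rose and 1 fell). Kcnd2, the channel Kv4.2 that carries the dendritic A-type current, went from 1800 and 1726 to 3731 and 3796 and rose by 1.09 (standard error 0.04, limma adjusted p = 6.7e-06), although on its brightest probe set the difference was 0.14 and did not pass, and the call was also lost with no filter on low signals (0.86, limma adjusted p = 0.083). Kcnc1, the channel Kv3.1 of fast-spiking neurons, rose by 0.64, from 1203 and 1314 to 1956 and 1959 (limma adjusted p = 0.00018).

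Among 19 glutamate receptor genes, 6 rose and 3 fell (median 0.11, or -0.06 with the brightest probe set of each gene). Gria3, an AMPA receptor subunit, had 1144 and 1043 in untreated and 2401 and 2398 in treated mice, and Grm5, a metabotropic receptor, had 2241 and 2139 against 3932 and 3856. Both rose on their 2 probe sets, by 1.14 and 0.83 at the level of the gene (limma adjusted p = 1.5e-05 and 1.8e-05). On the brightest probe set the differences were smaller, at 0.60 for Gria3 and 0.15 for Grm5. The 3 that fell were Grik5, Grm2 and Grin2d, by 0.69, 0.61 and 0.59, of which Grin2d was named after its value was seen and did not keep its direction with no filter on low signals (0.29, limma adjusted p = 0.62). Its call was also lost once Tg-18mo replicate 2 (0.096), Tg-18mo-ACEI replicate 1 (0.053) or Tg-18mo-ACEI replicate 2 (0.086) was omitted. Of 20 genes of synaptic vesicle release, 7 rose and 4 fell (median -0.03), and 2 fell without Tg-18mo replicate 2 or Tg-18mo-ACEI replicate 2. Snap25, a protein of the fusion complex, rose by 0.65, from 3006 and 3022 to 4684 and 4750, with 8267 and 7901 at 12 months. Its 2 probe sets differed, with 1.25 on one and 0.04 on the brighter one, which did not pass. Among 15 Eph receptors and ephrins, guidance and adhesion proteins of axons and dendritic spines, 4 rose and 2 fell (median -0.05). Epha4 had signals of 667 and 592 in untreated and 2401 and 2345 in treated mice, with 1210 and 1131 at 12 months, a difference of 1.92 (standard error 0.07, limma adjusted p = 4.3e-06). Epha3 rose by 0.89, from 225 and 178 to 394 and 352. The 2 falls of this list were both lost without Tg-18mo replicate 2 or either treated chip, and 1 was without Tg-18mo replicate 1.

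Genes that neurons transcribe within minutes of activity fell more often than they rose, 10 against 4 of 20 (median -0.30). Npas4, an activity-induced transcription factor, had signals of 210 and 194 in untreated, 87.3 and 113 in treated and 82.3 and 65.2 in 12 month-old mice, and fell by 1.02 (standard error 0.23, limma adjusted p = 0.0095). That call was lost without Tg-18mo replicate 1 (0.072), Tg-18mo replicate 2 (0.055) or Tg-18mo-ACEI replicate 1 (0.06). Egr4, a zinc finger factor, went from 574 and 623 to 328 and 328, and Nptx2, a secreted pentraxin that gathers AMPA receptors, from 315 and 365 to 182 and 169. They fell by 0.87 and 0.95 (limma adjusted p = 0.00061 and 0.0011). Fos, a subunit of the AP-1 factor, fell by 0.61, from 1023 and 1072 to 667 and 702, with 1119 and 1149 at 12 months. The nuclear receptors Nr4a2 and Nr4a3 went the other way. Nr4a2 went from 1021 and 1011 to 1960 and 1923 and rose by 0.93 (limma adjusted p = 1.6e-05) on each of its 4 kept probe sets, and Nr4a3 went from 2008 and 2037 to 3289 and 3181 and rose by 0.68 (limma adjusted p = 4.1e-05). Both calls were lost with no filter on low signals (0.67 and 0.71, limma adjusted p = 0.054 and 0.28). Jun and Homer1, the others that rose, had differences of 0.46 and 0.56, and Homer1 was not called with the median over its probe sets (0.04, limma adjusted p = 0.66). Jun is also counted among the dentate granule genes above, and Nr4a2 among the pyramidal neuron genes, so these counts are not separate. Fos, Nr4a3 and Homer1 were named after their values were seen.

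Many activity-regulated genes carry the cyclic AMP response element in their promoter, to which the factor CREB binds, and its letters were looked for in the genes that moved in both directions. The RefSeq promoter windows (GRCm38.p6, the 250 bases before the start of each transcript) held the half-site TGACG, or CGTCA on the other strand, in 13 of 15 activity-regulated genes with a window. These were 6 of 6 that fell, 3 of 4 that rose and 4 of 5 that were not called. Over all 27025 genes with a window the share was 19.8%, and over 9878 tested genes it was 30.5%. The full palindrome TGACGTCA, which contains both half-sites, was in 2 of the 15 genes, 1 of 6 that fell, 0 of 4 that rose and 1 of 5 not called, against 3.05% of tested genes and 1.77% of all genes. A gene counted when 1 of its windows held the letters, and the match is a description of the letters and not of a bound site. The windows of 2 genes that fell, Npas4 and Fos, and of 2 that rose, Nr4a2 and Nr4a3, are printed from 5′ to 3′ in the direction of the gene, with half-sites in capitals, to show half-sites in genes of both directions. None of these 4 windows holds the full palindrome.
Npas4: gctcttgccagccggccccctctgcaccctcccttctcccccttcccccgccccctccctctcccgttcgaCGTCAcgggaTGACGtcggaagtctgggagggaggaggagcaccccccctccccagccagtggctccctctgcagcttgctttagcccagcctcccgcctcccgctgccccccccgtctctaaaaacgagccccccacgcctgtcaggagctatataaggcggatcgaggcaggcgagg
Fos: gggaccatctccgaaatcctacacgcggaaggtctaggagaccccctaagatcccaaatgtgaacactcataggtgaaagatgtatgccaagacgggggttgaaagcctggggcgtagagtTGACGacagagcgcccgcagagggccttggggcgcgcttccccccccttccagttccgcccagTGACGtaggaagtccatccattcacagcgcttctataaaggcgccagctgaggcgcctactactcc
Nr4a2: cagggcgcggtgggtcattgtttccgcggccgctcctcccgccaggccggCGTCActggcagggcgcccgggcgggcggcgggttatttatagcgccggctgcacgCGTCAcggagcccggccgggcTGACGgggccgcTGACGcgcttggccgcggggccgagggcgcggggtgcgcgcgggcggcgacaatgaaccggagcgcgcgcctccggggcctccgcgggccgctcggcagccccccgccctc
Nr4a3: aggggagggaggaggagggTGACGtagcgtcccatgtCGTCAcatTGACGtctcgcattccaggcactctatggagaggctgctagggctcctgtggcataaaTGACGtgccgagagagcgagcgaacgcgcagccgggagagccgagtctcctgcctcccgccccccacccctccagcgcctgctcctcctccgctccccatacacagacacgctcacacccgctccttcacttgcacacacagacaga
The window of Npas4 is chr19:4989972-4990221 on the minus strand, that of Fos chr12:85473640-85473889 on the plus strand, that of Nr4a2 chr2:57124004-57124253 on the minus strand and that of Nr4a3 chr4:48045055-48045304 on the plus strand. Npas4 and Fos held 2 half-sites each, and Nr4a2 and Nr4a3 held 4 each.

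Genes that respond to glucocorticoids fell in 9 of 15 cases and rose in 4 (median -0.45). Plin4, a lipid droplet protein, had signals of 291 and 323 in untreated and 87.9 and 74.1 in treated mice, and the metallothionein Mt2 had 9727 and 9701 against 5856 and 5567. They fell by 1.93 and 0.77 (limma adjusted p = 0.00011 and 4.8e-05), and Plin4 reached the signal minimum only through the untreated mice. Nfkbia, the inhibitor of NF-κB, fell by 0.72, from 1520 and 1487 to 893 and 933, with 4 of its 5 probe sets lower. In all 3 genes the treated chips were below the untreated and the 12 month-old chips. Nr3c1 and Nr3c2, the glucocorticoid and mineralocorticoid receptors, named after their values were seen, rose by 0.38 and 0.22, and the call of Nr3c2 was lost with no intensity trend (limma adjusted p = 0.052) and once Tg-18mo replicate 1 or Tg-18mo-ACEI replicate 2 was omitted (0.074 each). The 4 rises became 1 when Tg-18mo replicate 1 or Tg-18mo-ACEI replicate 2 was omitted, and 2 when Tg-18mo replicate 2 was. Clock genes, which follow the time of day, went both ways with 4 of 17 higher and 6 lower (median -0.02). Nr1d1, a repressor of the clock, went from 383 and 367 to 214 and 130, Ciart, another repressor, from 523 and 500 to 249 and 256, and Dbp, an output factor, from 3634 and 3908 to 1968 and 1987. They fell by 1.17, 1.02 and 0.93 (limma adjusted p = 0.0038, 0.00064 and 1.6e-05). The time of day at which tissue was taken is not given in the sources used here. The rises in this list became 2 without Tg-18mo replicate 1 or either treated chip.

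Chromatin regulators rose in 19 of 28 cases and fell in 2 (median 0.53), the highest median of the lists not chosen by the study. Chd4, the helicase of the NuRD complex, had signals of 144 and 186 in untreated, 538 and 469 in treated and 227 and 231 in 12 month-old mice and rose by 1.62 (standard error 0.15, limma adjusted p = 0.00018). Atrx, a chromatin remodeller, went from 228 and 208 to 528 and 568 and rose by 1.33 (limma adjusted p = 8.2e-05), on 6 of its 7 probe sets. The probe set of Atrx with the largest rise (3.06) and another (1.57) reached the signal minimum only through the treated mice, so they had to differ to be tested. Its brightest probe set rose by 0.25. Arid1a, a subunit of the SWI/SNF complex, and Chd8, another helicase, both named after their values were seen, were the 2 that fell, by 0.61 and 0.45. The call of Arid1a was lost on its brightest probe set (-0.03, limma adjusted p = 0.66), and Chd8 did not keep its direction with no filter on low signals (0.56, limma adjusted p = 0.27). With the brightest probe set of each gene, 13 of the 28 genes rose, 3 fell and the median was 0.22. Of 29 genes of RNA-binding proteins and splicing factors, 15 rose and 3 fell (median 0.25, or 0.09 with the brightest probe set). Elavl2, a neuronal protein that binds AU-rich sequences, went from 1339 and 1246 to 2307 and 2301 and rose by 0.84 (limma adjusted p = 3.9e-05), and Msi2, an RNA-binding protein of progenitors, from 261 and 266 to 475 and 460 and by 0.82. Both calls were lost with no filter on low signals, and the number of rises was 8 without Tg-18mo-ACEI replicate 2.

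Among 12 long noncoding RNAs, 3 rose and 4 fell (median -0.22), and 1 fell without Tg-18mo replicate 1 or Tg-18mo-ACEI replicate 2. Malat1, a nuclear RNA, had signals of 198 and 209 in untreated and 638 and 596 in treated mice, with 357 and 344 at 12 months, and rose by 1.60 (limma adjusted p = 2.5e-05), on 4 of its 6 kept probe sets. Meg3, an imprinted RNA, went from 1275 and 1273 to 852 and 818 and fell by 0.61 (limma adjusted p = 0.00018), and of its 11 probe sets 10 fell and 1 rose. Of 4 genes of blood cells 2 fell, and of 6 transcripts known to differ between mouse strains or C57BL/6 substrains 1 rose and 2 fell. Genes of basic cell functions moved little. Of 18 cytoplasmic ribosomal proteins 2 fell and 0 rose (median -0.07), of 29 genes of oxidative phosphorylation 7 fell and 1 rose (median -0.09), and of 26 proteasome genes 5 fell and 5 rose (median -0.01). Over all genes 21.6% fell and 16.1% rose. The falls in these 3 lists were 0, 1 and 1 with Tg-18mo replicate 2 omitted, and 0, 2 and 2 with Tg-18mo-ACEI replicate 2 omitted, while the proteasome rises were 3 without either untreated chip of 18 months or Tg-18mo-ACEI replicate 1. Psma4, a subunit of the proteasome core, went from 3860 and 3859 to 5549 and 5585 and rose by 0.53 (standard error 0.04, limma adjusted p = 8.3e-05), the largest difference in these 3 lists.

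Amyloid precursor protein, App, did not pass, with signals of 12224 and 12781 in untreated and 13690 and 13140 in treated mice (difference 0.10, limma adjusted p = 0.12). Its 2 kept probe sets gave -0.05 and 0.25, and only the second was called. Whether these mouse probe sets also bind the RNA of the human transgene was not tested. Bace1, the β-secretase that makes the first cut towards amyloid-β, had 852 and 922 against 816 and 847 (difference -0.09, limma adjusted p = 0.34). Its 4 probe sets ranged from -0.36 to 0.31, and only the brightest was called, as higher. Of 18 genes of amyloid precursor processing, 7 fell and 1 rose (median -0.14), and 4 fell without Tg-18mo replicate 2. Of 11 genes of amyloid-β clearance, 3 rose and 2 fell (median -0.06). The counts of these lists stand against 16.1% higher and 21.6% lower over all genes. Lrp1, a receptor for amyloid-β and apolipoprotein E, went from 3453 and 3415 to 2407 and 2299 and fell by 0.55 (standard error 0.05, limma adjusted p = 0.00018), a call lost with no filter on low signals (-0.45, limma adjusted p = 0.21). Without Tg-18mo replicate 2 or Tg-18mo-ACEI replicate 2 there were 0 rises and 1 fall in the clearance list, and without Tg-18mo-ACEI replicate 1 there were 1 and 1. Of 18 genes that generate or remove reactive oxygen, 5 rose and 5 fell (median -0.01), with Gpx3, a secreted glutathione peroxidase, lower by 0.95, from 676 and 692 to 367 and 342. Omitting Tg-18mo replicate 2 gave 3 rises and 3 falls, omitting Tg-18mo-ACEI replicate 2 gave 2 and 3, and omitting Tg-18mo replicate 1 or Tg-18mo-ACEI replicate 1 gave 2 and 3 rises. Of 7 genes of the kallikrein-kinin system, which makes bradykinin, 3 fell and 1 rose (median -0.26). Serping1, the inhibitor of C1 and of plasma kallikrein, went from 708 and 697 to 329 and 375 and fell (standard error of the log2 difference 0.09, limma adjusted p = 0.00018), and the falls were 1 without Tg-18mo replicate 2 or Tg-18mo-ACEI replicate 2.

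How far the probe sets of a gene moved together was followed in the 5385 genes with 2 or more kept probe sets. All probe sets rose in 235 genes (4.36%), all fell in 272 (5.05%), and 283 genes (5.26%) had at least 1 probe set that rose and 1 that fell. The distance between the highest and the lowest probe set of a gene had a median of 0.34, and it was 1 or more in 666 genes. Among the 283 genes with calls in both directions, the brightest of the probe sets that fell was brighter than the brightest of those that rose in 175. A probe set that rose by at least 2-fold was found in 510 of these genes, of which 7 rose by 2-fold or more on every probe set, 79 did so in the mean over their probe sets and 84 had another probe set that fell. For a fall of at least 2-fold the corresponding numbers were 72 genes, 15, 25 and 7. Where the brightest probe set was at least 4-fold over the dimmest (2231 genes), 462 brightest probe sets rose and 473 fell, while 469 dimmest probe sets rose and 171 fell.

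Epha4 had 5 probe sets that rose, but by different amounts. Its 2 probe sets with the highest signals in untreated mice went from 4333 and 3370 to 5034 and 5523 and from 1669.7 and 1730.0 to 2175 and 2191, differences of 0.46 and 0.36, and the 3 others rose by 2.50, 3.10 and 3.15, the last from 435 and 323 to 3316 and 3351. Scn1a behaved in the same way, with 1 probe set at 1535 and 1556 against 1935 and 1882 (0.30) and the others higher by 2.59 and 2.74. Map1b, a protein that binds microtubules, rose by 0.68 to 2.10 on its 3 probe sets. In Rab6b, a GTPase of vesicle transport in neurons, the probe sets disagreed. One rose by 2.85, from 382 and 361 to 2675 and 2665, the brightest, at 12370.0 and 13943 against 12828 and 12228, did not pass (-0.07), and the 2 others fell by 0.36 and 1.22. Its gene value of 0.30 (limma adjusted p = 0.0026) therefore averages opposite calls. Wnk1, a kinase that controls chloride cotransporters, rose by 2.80 on 1 probe set and fell by 0.20 on the brightest, which went from 7080 and 7062 to 6105 and 6208. Crebbp, a histone acetyltransferase that acts with CREB, had the widest span between opposite calls, from -0.19 to 5.05. Its highest value came from untreated chips at 1.16 and 10.5 and treated chips at 118 and 113. That probe set reached the signal minimum only through the treated mice and so had to differ to be tested, and the size of its difference is poorly set. The gene value of Crebbp was 1.58, or 0.81 with 32 added to each signal, and its brightest probe set gave 0.23. Ankrd11, a chromatin regulator, the deubiquitinase Usp7 and Palm2, a protein of the paralemmin family, also had calls in both directions, from -0.45 to 3.23, from -0.68 to 2.41 and from -0.35 to 3.63. The 3.63 of Palm2 was on its dimmer probe set, whose mean over the 6 chips was under 200. That probe set may have reached the signal minimum only through the treated mice. Rph3a, rabphilin, a protein of synaptic vesicles, fell by 0.56 on its brighter and rose by 1.90 on its dimmer probe set.

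**Figure D5:**
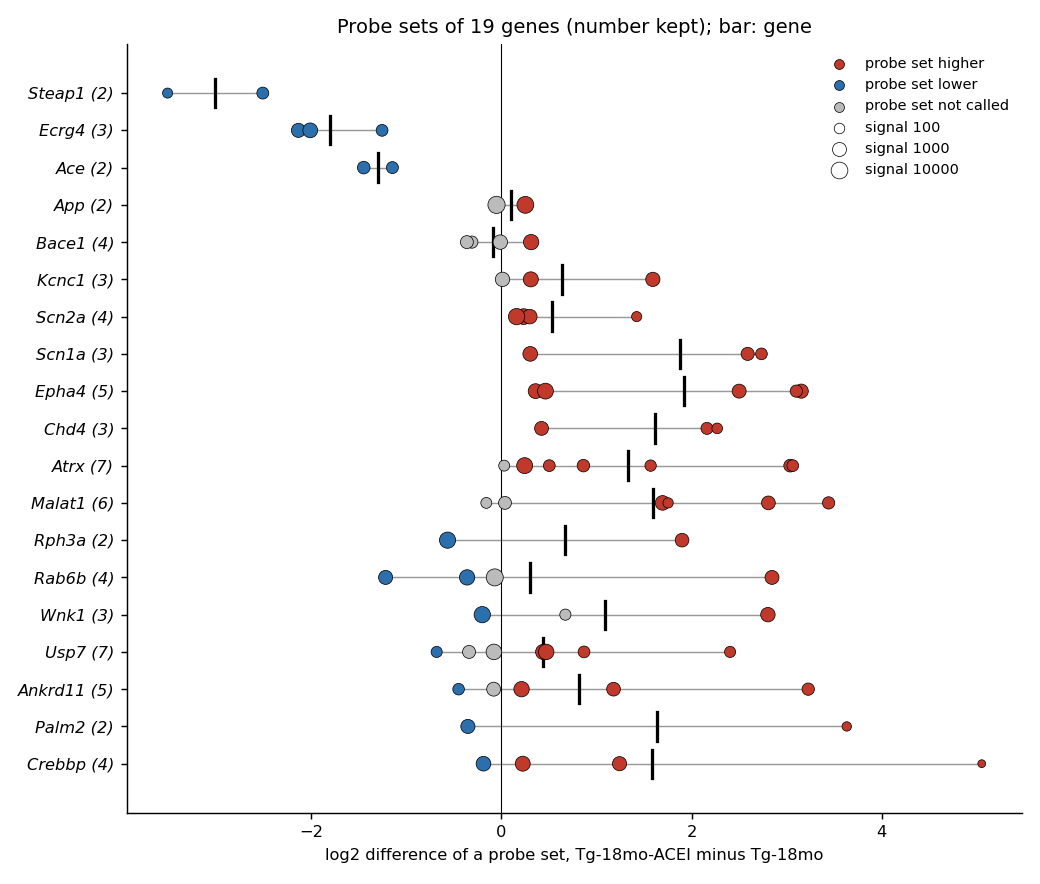
Log2 differences of the kept probe sets of 19 genes, with the number of probe sets behind each name. Points are probe sets, larger for higher signal, red when called higher, blue when called lower and grey when not called, and the black bar is the gene. All probe sets of Steap1, Ecrg4 and Ace lie below 0, those of Epha4, Scn1a and Chd4 lie above 0 at very unequal distances, and those of Rab6b and Crebbp lie on both sides.

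Over the genes whose probe sets all moved one way, the largest falls after Steap1, Cldn3 and Clic6 were those of Krt8, an epithelial keratin (-1.94), Ecrg4 (-1.80), F5, coagulation factor V (-1.76), Depp1, a target of FOXO factors (-1.68), and Col8a1, a collagen of basement membranes (-1.60). The largest rises after Epha4 and Scn1a were those of Slc16a14, a member of the monocarboxylate transporter family (1.82), Zbtb38, a protein that binds methylated DNA (1.63), Chd4, Map1b, Prox1, Ptar1, a subunit of a prenyltransferase (1.41), and Rb1cc1, a subunit of the kinase complex that starts autophagy. These genes were chosen by the size of their differences, which are a description. Slc16a14 was at 33.7 and 45.9 in untreated and 123 and 157 in treated mice, so that its difference depends on low signals (1.18 with 32 added). The rise of Rb1cc1 and the fall of Col8a1 rest on 2 of their 3 probe sets on the array, and the rise of Ptar1 on 2 of 4, and these 3 calls were lost with no filter on low signals (limma adjusted p = 0.64, 0.085 and 0.12). Of the kept probe sets, 2 of 3 of Krt8 and 1 of 2 of Depp1 reached the signal minimum only through the untreated mice, and all those of Slc16a14 and Ptar1 only through the treated mice. Zbtb38, at 108 and 97.6 in untreated mice, and Prox1 had their largest rises, 3.18 and 2.39, on their dimmest probe sets. Those probe sets may also have reached the minimum only through the treated mice. With 32 added to each signal the difference of Zbtb38 was 1.15.

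The study itself had singled out 38 probe sets of neuronal genes that were higher with captopril, on these same chips. Their genes are no independent evidence of a direction. Of 32 tested genes of this list 31 rose (median 0.77), and 16 rose and 3 fell when only the brightest probe set of each gene was read (median 0.16). The 38 probe sets had a median difference of 1.89. Those of the 38 that carry 1 gene symbol belong to 31 genes. Another 69 probe sets of 28 of these 31 genes, which were not among the 38, had a median of 0.16. Of these 69, 25 rose, 6 fell and 38 did not pass. A rise of the whole gene was thus seen for some of these genes, such as Epha4 and Scn1a, and calls in both directions for others, such as Rab6b, Wnk1 and Rph3a. The study also reported more protein of Epha4, Scn1a, Kcnc1 and Rab6b with captopril, in other mice. Protein was not examined here.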

How the data were processed

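Hippocampal RNA was hybridised to 6 Affymetrix MG430 2.0 chips, 2 per group. Per the methods of the authors, intensities were read with GCOS, scaled to a target value of 600, and deposited as linear signal intensities per probe set. No column of values was left unused. Signals were taken as log2, and limma 3.58.1 in R 4.3.3 (lmFit, eBayes with an intensity trend) was fitted to all 6 chips with 3 group means, over 22829 probe sets and over 12185 genes, with Benjamini-Hochberg adjustment. Python 3.11.15 and pandas 2.3.3 were used for counts, and the steps were tested on simulated data. Gene names came from the platform annotation. The number of chips limits the precision.

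Genes could be named when they belonged to the renin-angiotensin list or were followed by the study as protein or activity, were among the 12 largest rises or falls of genes whose probe sets were all called one way, were among the 6 widest splits, or had the 4 largest differences or the highest signal of a list, with genes from outside these rules stated. The text names only some of the 207 genes that met these rules, and no rule was stated for the choice among them. The 38 lists (719 genes, 608 tested), like the comparison itself, were chosen with earlier results of these data known. Alternatives covered the signal filter, added signal, normalization, chips, replicate block, variance prior, the methods' t-test and the summary over probe sets.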

Additional observations from a re-analysis of the deposited data

Results flagged for a closer look

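The 27 probe sets for poly-A control RNA, which is added to a sample during labelling and is no part of the tissue, entered none of the comparisons. The geometric mean of their signals was 96.9 and 85.1 on the untreated chips, 199.8 and 194 on the treated chips and 485 and 467 on the 12 month-old chips. All 27 were higher with captopril, by a factor of 2.17, while the 18 hybridisation controls had a ratio of 0.954. This was noted because it is a difference between the groups in a signal that does not come from the mice, and its part in the other results was not tested.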

How the results depend on the processing

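With only 2 chips per group, leaving out 1 chip moved the number of probe sets that rose between 2267 and 4052 and that fell between 2086 and 4632, and at the thresholds of the methods between 645 and 720 and between 193 and 267. The number of genes that rose lay between 1161 and 2154 and that fell between 1461 and 2993, and genes with all probe sets higher between 81 and 283, all lower between 103 and 325 and called both ways between 107 and 340. With no filter on low signals 970 genes rose and 1335 fell, 99 on all probe sets and 145 on all probe sets, and with the probe sets below 100 of the tested genes included 1130 rose and 1569 fell. Without probe sets that carry a suffix, 110 genes fell on all probe sets and 174 were called both ways. With no intensity trend these were 164 and 171, and 141 rose on all. At the thresholds of the methods, 153 probe sets fell with 32 added, and 464 rose and 122 fell with a mean signal of at least 200. The methods' t-test gave 95 rises and 53 falls after adjustment and 451 and 104 at those thresholds on linear signals, and 44 and 27, and 435 and 111, on log2 signals. The cause of these shifts was not tested. Samples with the same replicate number did not deviate together (correlations of -0.026, 0.034 and -0.052), and with the replicate block 1847 genes rose and 2490 fell.

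Of the 121 genes followed through the alternatives, 10 that were called changed direction in an alternative. With no filter on low signals, or with all probe sets of a gene included, Chd8 was at 0.56, Grin2d at 0.29, Cldn1 at 0.46, H2-K1 at 0.036 and Prcp at 0.19. With a mean signal of at least 200, Palm2 was at -0.35 and H2-K1 at 0.013. With the median over probe sets, Usp7 was at -0.34 and H2-K1 at 0.061. On the brightest probe set App was at -0.050, Bace1 at 0.31, Gad2 at -0.37, Palm2 at -0.35, Rab6b at -0.068, Rgs5 at -0.29, Rph3a at -0.56, Slc4a4 at -0.10, Ttr at 0.053, Usp7 at -0.077 and Wnk1 at -0.20. With summed signals Bace1 was at 0.13, Gad2 at -0.19, Palm2 at -0.12, Rgs5 at -0.10 and Rph3a at -0.26. Leaving out 1 chip moved Agt between -0.26 and 0.43, below 0 when Tg-18mo replicate 2 (-0.26) or Tg-18mo-ACEI replicate 1 (-0.046) was omitted, and Enpep between -0.018 and 0.16. Of the 38 list medians 15 changed sign in an alternative, the largest of these being 0.225 in size.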
